A study of Mus musculus with 6 samples.

Results

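The genes described here are 43 innate immune sensors and their close partners: Toll-like receptors (TLRs), their co-receptors and adaptors, NOD-like and inflammasome genes, C-type lectin receptors, TREM receptors, and interleukin 1 genes with some secreted products of innate cells. They were taken as a fixed list of names, chosen with earlier results of these data known. Of the 43, 39 were measured by a probe set that belongs to 1 gene, out of 19938 genes measured so, and each of the 39 had 1 such probe set. Tlr5, Irak4, Fpr1 and Fpr2 are not analysed here. Total RNA of mouse cells was measured on 6 Affymetrix arrays, 2 for each of 3 populations. The HSC samples were bone marrow cells transduced with the fusion protein NUP98-HOXB4 and expanded in culture with IL6 and SCF, cytokines that support blood progenitors. The ProT samples carried the same fusion and had been cultured with DLL4, a ligand of the receptor Notch1, and IL7, which drives them to the T cell lineage. The DP samples were double positive thymocytes that arose after such ProT cells were injected into Rag2-/- mice, which make no mature T or B cells of their own but keep their own myeloid and stromal cells. Thus all 3 populations carry NUP98-HOXB4, there is no population without it, and HSC names a cultured, expanded population and not stem cells taken from marrow. The labels do not say whether the 2 arrays of a population came from separate cultures or mice, so a p-value here rests on a spread between arrays that may be technical.

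Innate sensors recognise molecules that microbes or damaged cells carry and that are shared by many species. TLRs at the cell surface bind bacterial lipids and proteins, TLRs in endosomes bind nucleic acids, and most pass the signal through the adaptor Myd88 and IRAK kinases to NF-kB. C-type lectin receptors bind sugars and glycolipids of fungi and mycobacteria, and inflammasomes activate caspase 1, which processes interleukin 1 beta. Macrophages, neutrophils and dendritic cells are best known for these genes, and blood progenitors can express some of them too.

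Levels are deposited log2 signals, on which 1 unit is a 2-fold difference. Probe sets differ in brightness, so a level is compared between samples and never between genes. The median of all gene values was 7.17, and only 0.763% of the values of 1027 olfactory receptor genes, which blood cells are not known to use, reached it. A fold change is written as "at least" where the lower mean is below 7.17, and no fold is given where both are. A gene was called changed where its limma p, adjusted by Benjamini-Hochberg across 19938 genes, was under 0.05. Errors are moderated standard errors (SE) with 2 arrays per population. Calls were also checked with 1 array left out. For 2 compared populations, leaving out an array of the third keeps the change and alters only the estimate of spread.

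Most of the innate genes were lower in DP than in HSC, and most of those had already fallen in ProT. The mean level reached 7.17 for 35 of the 39 genes in HSC, for 18 in ProT and for 13 in DP, and the median of the 39 means was 9.38, 7.08 and 6.82. From HSC to ProT, 27 genes fell, 2 rose and 10 were not called, so 74.4% were called against a background of 14.7% of all genes (6.9% lower and 7.85% higher). From ProT to DP, 17 fell, 5 rose and 17 were not called, or 56.4% against 32.6% (18.1% lower and 14.5% higher). Over the whole path from HSC to DP, 31 fell, 2 rose and 6 were not called, or 84.6% against 34.9% (18.8% lower and 16% higher). The median change of the 39 genes was -1.43, -0.52 and -2.10 in these comparisons, against -0.01, 0.02 and 0.02 over all genes. The comparisons share arrays, so their counts are not independent of each other. Which direction was more frequent among all genes changed with the normalization, as given in the section on processing. The list was chosen with earlier results of these data known, so its excess over the background describes these genes and tests nothing.

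**Figure D1:**
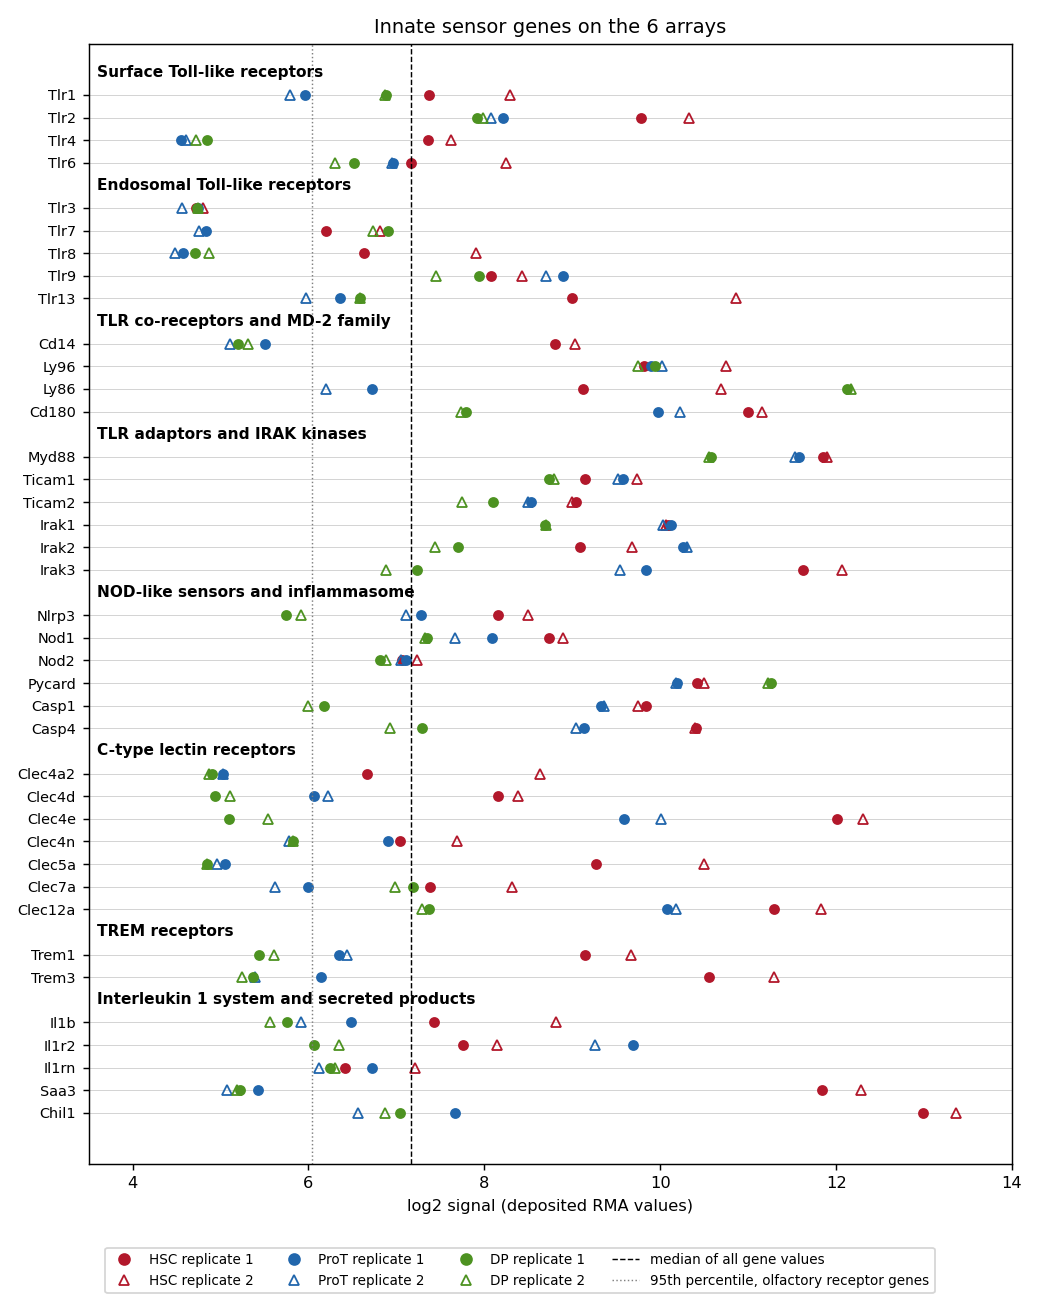
Deposited log2 signal of the 39 measured innate genes (rows, by role) on the 6 arrays, with circles for replicate 1 and triangles for replicate 2. The dashed line is the median of all gene values and the dotted line the 95th percentile of olfactory receptor values. Saa3, Chil1, Trem3 and Clec5a are above the dashed line on both HSC arrays and near or below it in DP, Il1r2 is highest on the ProT arrays and Ly86 on the DP arrays.

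The HSC arrays differed from each other in these genes. Of the 39, 35 were higher on HSC replicate 2 than on HSC replicate 1, with a median gap of 0.45, while 50.4% of all genes were higher there with a median gap of 0.00. The gap was at least 2-fold for 7 of the 39 innate genes and for 204 of all 19938 genes, and among the innate genes largest for Clec4a2 (1.97), Tlr13 (1.86) and Ly86 (1.57). In ProT and DP, 9 and 14 of the 39 were higher on replicate 2, against 41.6% and 45.1% of all genes. Between HSC replicates 1 and 2 the mean level of neutrophil markers also differed (10.31 and 10.65), as did that of monocyte and macrophage markers (8.60 and 8.95) and of progenitor markers (9.99 and 9.34), and their part in the gap was not tested. Without HSC replicate 1, 27 genes fell from HSC to ProT, and without HSC replicate 2, 25 fell. Counts of the rarer rises moved more: between 1 and 3 genes rose from HSC to ProT, and between 3 and 5 from ProT to DP, when any 1 of the 6 arrays was left out.

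Markers of other blood cells were measured on the same arrays. Of all genes, 6.9% fell and 7.85% rose from HSC to ProT, and 18.1% fell and 14.5% rose from ProT to DP. All 13 neutrophil markers, among them the granule protein genes Mpo, Elane and Ltf, fell from HSC to ProT, and their summed linear signal was 39361 to 45681 on the HSC arrays, 1824 to 3545 in ProT and 2170 to 2305 in DP. Of 13 monocyte and macrophage markers, 4 fell and 1 rose from HSC to ProT, with sums of 17625 to 22418 in HSC and 6780 to 7114 in ProT. From ProT to DP, 7 of these 13 rose and 3 fell, and the sum in DP was 6807 to 7316. The rises included the factor XIII subunit gene F13a1 by 5.55 and the complement gene C1qb by 3.13, and the falls included the monocyte chemokine receptor gene Ccr2, which fell by 4.18. Of 10 dendritic cell markers, 2 rose and 1 fell from HSC to ProT and 4 rose and 3 fell from ProT to DP. Of 10 mast cell and basophil markers, 5 rose and 1 fell from HSC to ProT, and 8 fell from ProT to DP. The 9 markers of double positive cells had a mean level of 12.77 and 12.75 on the DP arrays and 5.79 on both HSC arrays, and the 9 ProT markers 11.98 and 12.02 in ProT. The 9 progenitor markers were between 9.34 and 9.99 in HSC, 8.909 and 8.999 in ProT, and 7.20 and 7.23 in DP. The lists share some genes, so they are not independent. Ccr9 is a dendritic and a double positive marker, and Flt3 a dendritic and a progenitor marker. Kit and Gata2 are mast cell and progenitor markers, and Cd3e is a ProT and a double positive marker. The ProT markers were also high in DP (10.97 and 10.91), and the progenitor markers set HSC and ProT apart little, with 3 of 9 lower and 1 higher in ProT, a median change of -0.19, and overlapping summed signals (13150 and 16694 in HSC, 14795 and 15027 in ProT). Whether innate transcripts fell because fewer cells carry them or because each cell holds less cannot be told apart in bulk RNA, and the part that neutrophil-type or macrophage-type cells have in these values was not tested.

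**Figure D2:**
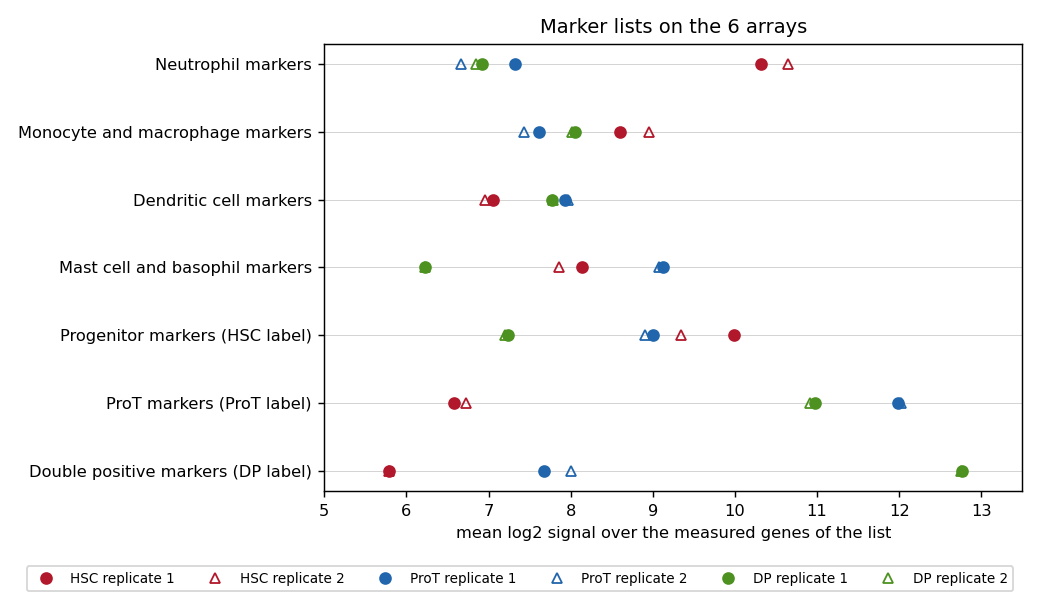
Mean log2 signal of each marker list (rows) on each of the 6 arrays, shown as 1 point per array, with circles for replicate 1 and triangles for replicate 2. The neutrophil list is at 10.31 and 10.65 in HSC and between 6.66 and 7.32 elsewhere, and the monocyte and macrophage list is 8.60 and 8.95 in HSC, 7.43 and 7.61 in ProT and 8.01 and 8.05 in DP.

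To show what lies before the start sites of genes that moved together or apart, the 250 bases upstream of the start were taken from RefSeq (build GRCm38.p6), which held windows for 32 of the 39 genes. They were searched on both strands for the PU.1 site GAGGAAGT, the shorter ETS core GAGGAA that it contains and a C/EBP-like pattern TTGCNNCAA. Also searched were an NF-kB site (GGG and TTTCC with any 2 bases between) and an AP-1 site TGANTCA. The C/EBP-like pattern cannot match the shorter palindrome TTGCGCAA of C/EBP factors, so its matches are not a count of C/EBP sites. The Clec12a window below holds TTGCGCAA, left in lower case. PU.1, an ETS factor, and C/EBP factors are regulators of myeloid genes. Of all 32851 windows, 23.3% held the ETS core, 2.44% the PU.1 site, 1.74% the C/EBP-like pattern, 1.41% the NF-kB site and 6.75% the AP-1 site. Among the 43 windows of the innate genes, 15 held the ETS core, 2 the PU.1 site, 1 the C/EBP-like pattern, 4 the NF-kB site and 3 the AP-1 site. Some genes have several windows that overlap. The sequences below run 5′ to 3′ on the gene's strand and end at the base before a RefSeq start, with matches in capitals. For Clec12a and Tlr1 that start lies inside the annotated gene. The Clec12a window is thus wholly, and the Tlr1 window partly, within the gene. The 4 lectin genes were chosen because each holds the ETS core and all fell between HSC and DP. The lectin gene Clec7a also holds the ETS core and is not shown. It was not called between HSC and DP and rose from ProT to DP. Tlr1 and Pycard were chosen because they alone hold the full PU.1 site and rose from ProT to DP, and Casp4 because it holds 2 NF-kB matches. Genes chosen by motif and direction together cannot show a link between them. A match describes letters only and shows no binding.
Clec4e, chr6:123289872-123290121, minus strand: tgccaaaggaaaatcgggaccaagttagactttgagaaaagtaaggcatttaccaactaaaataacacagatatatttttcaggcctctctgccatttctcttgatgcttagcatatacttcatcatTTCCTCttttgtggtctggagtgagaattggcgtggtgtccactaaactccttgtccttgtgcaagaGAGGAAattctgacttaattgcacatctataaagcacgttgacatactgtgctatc
Clec4d, chr6:123261857-123262106, plus strand: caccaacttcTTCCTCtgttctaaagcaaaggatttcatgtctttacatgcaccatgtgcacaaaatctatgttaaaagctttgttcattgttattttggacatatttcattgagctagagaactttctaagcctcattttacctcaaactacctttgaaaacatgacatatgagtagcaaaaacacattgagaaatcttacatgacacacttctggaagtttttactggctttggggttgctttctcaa
Clec5a, chr6:40585806-40586055, minus strand: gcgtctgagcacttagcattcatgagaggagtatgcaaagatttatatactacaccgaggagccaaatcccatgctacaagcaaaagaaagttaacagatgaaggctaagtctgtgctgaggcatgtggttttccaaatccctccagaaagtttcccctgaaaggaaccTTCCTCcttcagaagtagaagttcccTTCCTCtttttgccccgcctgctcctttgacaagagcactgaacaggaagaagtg
Clec12a, chr6:129349994-129350243, plus strand: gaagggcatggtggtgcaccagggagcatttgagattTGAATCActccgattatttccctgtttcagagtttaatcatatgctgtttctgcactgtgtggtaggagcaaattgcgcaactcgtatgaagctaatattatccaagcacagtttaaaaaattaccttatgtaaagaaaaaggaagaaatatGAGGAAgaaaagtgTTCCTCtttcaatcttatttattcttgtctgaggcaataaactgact
Tlr1, chr5:64933559-64933808, minus strand: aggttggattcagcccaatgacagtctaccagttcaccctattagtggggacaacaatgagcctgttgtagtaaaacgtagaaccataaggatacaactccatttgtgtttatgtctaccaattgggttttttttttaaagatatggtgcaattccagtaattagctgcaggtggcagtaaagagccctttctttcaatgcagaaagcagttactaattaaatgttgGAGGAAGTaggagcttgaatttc
Pycard, chr7:127993868-127994117, minus strand: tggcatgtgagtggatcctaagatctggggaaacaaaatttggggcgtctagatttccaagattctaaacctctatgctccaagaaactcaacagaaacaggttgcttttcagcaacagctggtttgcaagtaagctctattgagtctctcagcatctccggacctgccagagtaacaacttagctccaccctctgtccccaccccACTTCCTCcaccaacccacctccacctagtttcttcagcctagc
Casp4, chr9:5308599-5308848, plus strand: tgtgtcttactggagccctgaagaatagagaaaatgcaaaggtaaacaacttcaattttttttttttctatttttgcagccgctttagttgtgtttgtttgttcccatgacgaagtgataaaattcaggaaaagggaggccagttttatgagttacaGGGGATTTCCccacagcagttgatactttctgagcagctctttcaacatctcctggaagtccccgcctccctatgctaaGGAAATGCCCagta

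Of the surface TLRs, Tlr1, Tlr2 and Tlr4 fell from HSC to ProT and Tlr6 was not called. Tlr2, the shared partner of Tlr1 and Tlr6 for bacterial lipoproteins, was 9.78 and 10.33 in HSC, 8.21 and 8.07 in ProT, and 7.91 and 7.99 in DP. It was the highest in both HSC arrays and fell by 1.91 (SE 0.18, 3.75-fold, adjusted p = 0.00153 in limma), with no call after that (change -0.19, adjusted p = 0.498). Tlr4, the receptor for lipopolysaccharide, was 7.35 and 7.63 in HSC, 4.56 and 4.61 in ProT, and 4.85 and 4.72 in DP, a fall of 2.91 (SE 0.11, at least 7.5-fold, adjusted p = 4.36e-05). Both later populations lay near the olfactory median of 4.66. Tlr1 was 7.37 and 8.30 in HSC, 5.97 and 5.79 in ProT, and 6.88 and 6.87 in DP. It fell by 1.95 (SE 0.28, adjusted p = 0.00754) and rose by 0.995 (SE 0.28, adjusted p = 0.0426) from ProT to DP, where both means are below 7.17. That rise was lost without any 1 of the ProT or DP arrays (adjusted p from 0.105 to 0.19). Tlr6, the neighbour of Tlr1 in the genome with 0 protein-coding genes between them, had means of 7.71, 6.96 and 6.41. Its first change of -0.75 was not called (adjusted p = 0.225), except without HSC replicate 1 (-1.29). From ProT to DP its change of -0.55 was not called in the fit of all arrays (adjusted p = 0.282). In a fit of ProT and DP alone it was called (adjusted p = 0.00865). Tlr6 fell over the whole path by 1.30 (SE 0.33, adjusted p = 0.0267). Without a DP array the adjusted p was 0.109 or 0.165, and without HSC replicate 2 the fall was 0.76.

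Of the 2 genes that help Tlr4 bind lipopolysaccharide, Cd14 fell and Ly96 was not called. Cd14, which hands lipopolysaccharide to the Tlr4 complex, was 8.81 and 9.04 in HSC, 5.51 and 5.10 in ProT, and 5.20 and 5.31 in DP. It fell by 3.62 (SE 0.16, at least 12.3-fold, adjusted p = 6.73e-05), and the HSC arrays stood more than 3 units above all others. Ly96, which encodes MD-2, the lipopolysaccharide-binding subunit of that complex, stayed uncalled in every comparison, with means of 10.28, 9.96 and 9.84. Its interval from HSC to ProT ran from -1.04 to 0.39, and without HSC replicate 1 it was called (a fall by 0.79, adjusted p = 0.0106).

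Cd180, a TLR-like surface protein, and Ly86, which encodes MD-1, its bound partner, moved in opposite directions from ProT to DP. Cd180 was 11.00 and 11.16 in HSC, 9.97 and 10.23 in ProT, and 7.79 and 7.74 in DP. It fell by 0.98 (SE 0.11, adjusted p = 0.00304) and then fell by 2.33 (SE 0.11, 5.04-fold, adjusted p = 6.59e-05). Ly86 was 9.12 and 10.70 in HSC, 6.73 and 6.20 in ProT, and 12.12 and 12.16 in DP. It fell by 3.45 (SE 0.49, at least 10.9-fold, adjusted p = 0.00707) and then rose by 5.68 (SE 0.49, at least 51.3-fold, adjusted p = 0.000534). The DP arrays exceeded both HSC arrays, by 2.23 on average (SE 0.49, adjusted p = 0.0157). That last difference lost its call without either DP array (adjusted p = 0.0964 and 0.107) and was 1.45 without HSC replicate 1. The first fall was a change of -2.66 without HSC replicate 2. Of the 13 monocyte and macrophage markers, 7 rose from ProT to DP, among them F13a1 and C1qb, and 3 fell, among them Ccr2. Of all genes, 14.5% rose and 18.1% fell at that step. The summed signal of the 13 markers was 6780 to 7114 in ProT and 6807 to 7316 in DP. The part of these markers' cells in the rise of Ly86 was not tested.

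**Figure D3:**
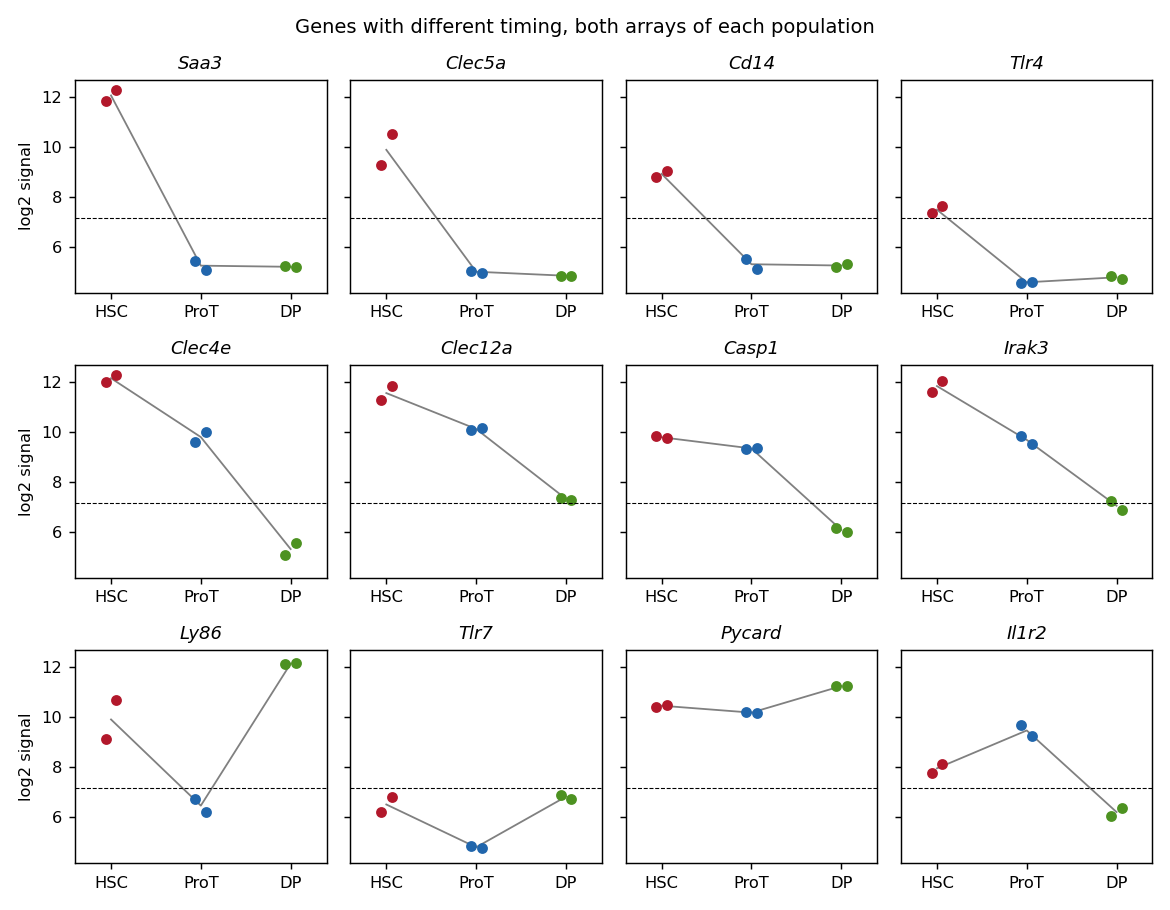
Log2 signal of 12 innate genes (panels) on the arrays of HSC, ProT and DP, with a point per array, a line through the means and a dashed line at the median of all gene values. Ly86 and Tlr7 are lowest in ProT, Il1r2 is highest there, Pycard is highest in DP, Casp1 and Clec4e fall further from ProT to DP than from HSC to ProT, and Saa3, Clec5a, Cd14 and Tlr4 are below the dashed line in ProT and DP.

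Of the endosomal TLRs, Tlr7, Tlr8 and Tlr13 fell from HSC to ProT, while Tlr3 and Tlr9 were not called. Tlr13, which senses bacterial ribosomal RNA, was 9.001 and 10.86 in HSC, 6.36 and 5.97 in ProT, and 6.59 and 6.58 in DP. It fell by 3.76 (SE 0.56, at least 13.6-fold, adjusted p = 0.00831), with the HSC arrays far apart but both above every other array, and the fall was 2.83 without HSC replicate 2. Tlr8, next to Tlr7 on the X chromosome, was 6.63 and 7.91 in HSC, 4.57 and 4.48 in ProT, and 4.71 and 4.87 in DP, a fall of 2.74 (SE 0.38, at least 6.7-fold, adjusted p = 0.00662), with a change of -2.10 without HSC replicate 2. Tlr7, a sensor of single-stranded RNA, was 6.20 and 6.81 in HSC, 4.84 and 4.76 in ProT, and 6.90 and 6.74 in DP. It fell by 1.71 (SE 0.20, adjusted p = 0.0032) and rose by 2.02 (SE 0.20, adjusted p = 0.000828), and all 3 means are below 7.17. Between HSC and DP the change of Tlr7 was 0.31 and not called (interval -0.17 to 0.80, adjusted p = 0.3), while its neighbour Tlr8 ended 2.48 lower (adjusted p = 0.00398). Without HSC replicate 2, Tlr7 was 0.62 higher in DP than in HSC (adjusted p = 0.00963).

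Tlr9, a sensor of DNA with unmethylated CpG, was not called from HSC to ProT and fell later. It was 8.08 and 8.43 in HSC, 8.89 and 8.70 in ProT, and 7.94 and 7.45 in DP. Both ProT arrays were above all others, yet the change of 0.54 from HSC was not called (interval 0.06 to 1.03 before adjustment, adjusted p = 0.145), and the fall of 1.11 to DP was (SE 0.20, 2.15-fold, adjusted p = 0.00798). Without DP replicate 2 the adjusted p of that fall was 0.0503. Tlr3, the sensor of double-stranded RNA, lay at means of 4.76, 4.66 and 4.74, near the olfactory median, in all populations. Unc93b1, which carries endosomal TLRs out of the endoplasmic reticulum and is not among the 43, fell by 2.71 from ProT to DP (SE 0.09, adjusted p = 1.81e-05).

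Of the 6 adaptors and IRAK kinases, 3 fell and 1 rose from HSC to ProT, and all 6 fell from ProT to DP. Of all genes, 6.9% fell and 7.85% rose at the first step, and 18.1% fell at the second. Myd88, the adaptor of most TLRs and of the interleukin 1 receptor, was 11.85 and 11.89 in HSC, 11.57 and 11.54 in ProT, and 10.57 and 10.55 in DP. It fell by 0.32 (SE 0.07, adjusted p = 0.0346) and then fell by 0.99 (SE 0.07, adjusted p = 0.00025). The first call was lost without HSC replicate 2 or a ProT array. It was also lost without a DP array, which leaves the fall at 0.32. Irak1, a kinase recruited by Myd88, was 10.09 and 10.06 in HSC, 10.13 and 10.04 in ProT, and 8.69 and 8.70 in DP. Its first change was 0.01 (interval -0.17 to 0.19) and its second a fall of 1.39 (SE 0.07, 2.62-fold, adjusted p = 8.92e-05).

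Irak2 and Irak3, kinase relatives with opposite roles, peaked in different populations. Irak2, which sustains signalling, was 9.08 and 9.68 in HSC, 10.25 and 10.30 in ProT, and 7.71 and 7.44 in DP. It rose by 0.90 (SE 0.20, adjusted p = 0.037) and then fell by 2.71 (SE 0.20, 6.52-fold, adjusted p = 0.000322). The call of the rise was lost without a ProT array, and also without a DP array, which leaves the rise at 0.90. Irak3, an inhibitor of IRAK signalling known from macrophages, was 11.62 and 12.06 in HSC, 9.84 and 9.54 in ProT, and 7.23 and 6.88 in DP. It fell at both steps, with changes of -2.15 and -2.63 (SE 0.20 for each, adjusted p = 0.00141 and 0.000327), and ended at least 27.6-fold lower.

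Ticam1 and Ticam2, the adaptors of the branch of Tlr3 and Tlr4 that leads to interferon, both fell by under 1 unit from ProT to DP. Ticam1 had means of 9.45, 9.55 and 8.77 and fell by 0.78 from ProT to DP (SE 0.19, adjusted p = 0.0238), and its first change of 0.10 was called only without HSC replicate 2 (0.40, adjusted p = 0.0483). Ticam2 had means of 9.02, 8.51 and 7.92, and its changes of -0.51 and -0.59 had adjusted p of 0.0475 and 0.0143. Neither adaptor kept these calls when a ProT array was left out. The fall of Ticam1 from ProT to DP was also lost without a DP array, and the first fall of Ticam2 without an HSC array. Over the whole path from HSC to DP, the change of Ticam2 was -1.10 (adjusted p = 0.0011) and kept its call in every alternative. That of Ticam1 was -0.68 (adjusted p = 0.0361) and did not.

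In the inflammasome, the adaptor rose while the caspases fell. Pycard, which encodes ASC, the adaptor that links sensors to caspase 1, was 10.42 and 10.50 in HSC, 10.19 and 10.18 in ProT, and 11.26 and 11.23 in DP. It rose by 1.06 from ProT to DP (SE 0.07, 2.09-fold, adjusted p = 0.000223), and both DP arrays lay above every other array. Casp1, the caspase that ASC recruits, was 9.84 and 9.75 in HSC, 9.33 and 9.36 in ProT, and 6.174 and 5.997 in DP. It fell by 0.45 (SE 0.09, adjusted p = 0.0241) and then fell by 3.26 (SE 0.09, at least 9.58-fold, adjusted p = 1.14e-05). The first of these was lost without HSC replicate 1 or either ProT array (adjusted p from 0.0586 to 0.109). Casp4, the neighbour of Casp1 and the mouse caspase that senses lipopolysaccharide in the cytosol, was 10.41 and 10.40 in HSC, 9.14 and 9.04 in ProT, and 7.29 and 6.93 in DP. It fell by 1.31 (SE 0.13, adjusted p = 0.00171) and fell by 1.98 (SE 0.13, at least 3.95-fold, adjusted p = 0.000181).

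Of the 3 NOD-like sensors, Nlrp3 and Nod1 fell at both steps. Nlrp3, the sensor of an inflammasome that responds to cell damage, was 8.16 and 8.49 in HSC, 7.28 and 7.11 in ProT, and 5.75 and 5.92 in DP, with changes of -1.13 and -1.36 (adjusted p = 0.00391 and 0.000933). Nod1 and Nod2 recognise fragments of bacterial cell wall. Nod1 had means of 8.81, 7.88 and 7.34 and fell at both steps, with changes of -0.94 and -0.54 (adjusted p = 0.0111 and 0.0391). The first call was lost without either DP array, which leaves that change at -0.94. The second was lost without either DP array and without ProT replicate 1, where the fall was 0.33. Nod2 was near 7.17 throughout, with means of 7.15, 7.08 and 6.85. It was called only from HSC to DP, by -0.30 (adjusted p = 0.0442). That call was lost without HSC replicate 2 or a DP array. It was also lost without a ProT array, which leaves the change at -0.30.

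Of the 7 C-type lectin receptors, 6 fell from HSC to ProT, as did 6.9% of all genes. Clec5a, a myeloid receptor that signals through the adaptor DAP12 (Tyrobp), was 9.27 and 10.50 in HSC, 5.06 and 4.96 in ProT, and 4.85 and 4.84 in DP. It fell by 4.88 (SE 0.37, at least 29.4-fold, adjusted p = 0.000638), with a change of -4.26 without HSC replicate 2, and was close to the olfactory median in both later populations. Clec4e, which encodes Mincle, a receptor for mycobacterial glycolipid, was 12.01 and 12.30 in HSC, 9.59 and 10.01 in ProT, and 5.09 and 5.54 in DP. It fell by 2.36 (SE 0.21, 5.12-fold, adjusted p = 0.00125) and fell by 4.48 (SE 0.21, at least 22.3-fold, adjusted p = 6.23e-05), which left it at least 114-fold lower in DP than in HSC. Clec4d, the partner of Mincle and its direct neighbour in the genome, was 8.16 and 8.38 in HSC, 6.06 and 6.22 in ProT, and 4.94 and 5.11 in DP. Its changes were -2.13 (SE 0.12, adjusted p = 0.000164) and -1.12 (SE 0.12, adjusted p = 0.00101).

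Clec12a, an inhibitory lectin of myeloid cells, kept a high level in ProT. It was 11.30 and 11.83 in HSC, 10.08 and 10.18 in ProT, and 7.37 and 7.29 in DP, with changes of -1.43 (SE 0.17, adjusted p = 0.00377) and -2.80 (SE 0.17, 6.94-fold, adjusted p = 0.000157). Clec7a, which encodes Dectin-1, the receptor for fungal beta-glucan, was 7.39 and 8.32 in HSC, 5.997 and 5.623 in ProT, and 7.18 and 6.98 in DP. It fell by 2.04 (SE 0.31, adjusted p = 0.00857) and rose by 1.27 (SE 0.31, adjusted p = 0.024), with both means of the second step below 7.17. That rise was lost without ProT replicate 2 or either DP array (adjusted p from 0.105 to 0.146). Clec4a2 was 6.67 and 8.63 in HSC and between 4.87 and 5.03 on the other 4 arrays. Its fall of 2.62 (SE 0.58, adjusted p = 0.0342) was 1.64 without HSC replicate 2. The call was lost without any ProT array, and also without any DP array, which leaves the fall at 2.62. Clec4n, which encodes Dectin-2, the receptor for fungal mannan, had means of 7.37, 6.34 and 5.82 and fell over the whole path by 1.54 (adjusted p = 0.0252, and 0.0953 to 0.139 without HSC replicate 2 or a DP array). Its change of -1.03 from HSC to ProT was called only without ProT replicate 1 (-1.59, adjusted p = 0.0269), and that of -0.52 from ProT to DP only without ProT replicate 2 (-1.08, adjusted p = 0.0385).

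Both TREM receptors fell early. These receptors amplify TLR responses in neutrophils and macrophages, again through DAP12. Trem3 was 10.55 and 11.29 in HSC, 6.15 and 5.39 in ProT, and 5.37 and 5.25 in DP, a fall of 5.15 (SE 0.32, at least 35.6-fold, adjusted p = 0.000282). Trem1, its neighbour, was 9.14 and 9.67 in HSC, 6.35 and 6.43 in ProT, and 5.44 and 5.61 in DP, a fall of 3.02 (SE 0.18, at least 8.09-fold, adjusted p = 0.000235). Trem1 fell again by 0.87 (SE 0.18, adjusted p = 0.0135), with both means below 7.17, and that second call was lost without ProT replicate 2 or either DP array (adjusted p from 0.0591 to 0.103).

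The secreted products held the largest falls among the 39 genes from HSC to ProT. Saa3, an acute phase serum amyloid protein, was 11.84 and 12.29 in HSC, 5.42 and 5.08 in ProT, and 5.22 and 5.18 in DP. It fell by 6.81 (SE 0.18, at least 112-fold, adjusted p = 1.24e-05) and did not pass the test after that (change -0.05, interval -0.49 to 0.40). Chil1, a chitinase-like protein of neutrophils and macrophages, was 12.99 and 13.36 in HSC, 7.67 and 6.56 in ProT, and 7.04 and 6.87 in DP, a fall of 6.06 (SE 0.35, at least 66.7-fold, adjusted p = 0.000219). Its later change of -0.16 was called only without ProT replicate 2 (-0.71, adjusted p = 0.0436). The 13 neutrophil markers fell over the same step, and their part in these falls was not tested.

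In the interleukin 1 system, the decoy receptor went up in ProT and the cytokine went down. Il1r2, a decoy that binds interleukin 1 without signalling, was 7.76 and 8.15 in HSC, 9.69 and 9.25 in ProT, and 6.06 and 6.35 in DP. It rose by 1.52 (SE 0.20, 2.86-fold, adjusted p = 0.00548) and then fell by 3.27 (SE 0.20, at least 9.61-fold, adjusted p = 0.000156), with no overlap between populations. Il1b, the inflammatory cytokine itself, was 7.43 and 8.82 in HSC, 6.48 and 5.91 in ProT, and 5.76 and 5.57 in DP, a fall of 1.93 (SE 0.45, adjusted p = 0.0407). That call was lost without any ProT array, and also without any DP array, which leaves the fall at 1.93. The fall was 1.23 without HSC replicate 2. Il1rn, the receptor antagonist, had means of 6.82, 6.42 and 6.28, all below 7.17, and was not called.

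**Figure D4:**
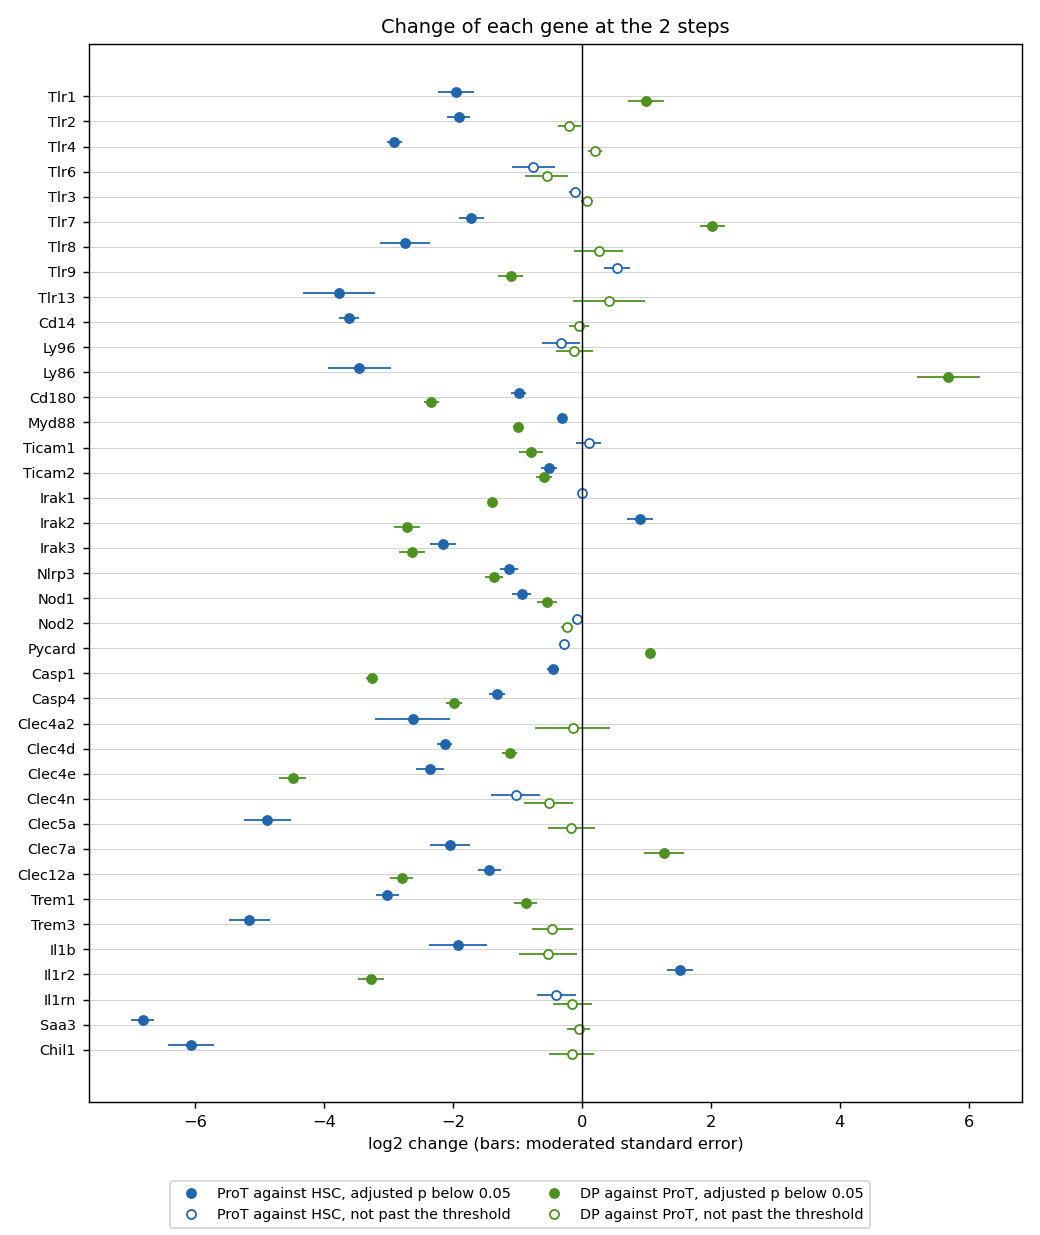
Log2 change of each innate gene from HSC to ProT and from ProT to DP, with bars of 1 SE and filled points where the change passed the test. Saa3, Chil1, Trem3 and Clec5a lie far to the negative side at the first step and near 0 at the second, and Ly86 reaches 5.68 at the second.

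Read over both steps, 12 genes fell at both steps, 11 fell to ProT only, 3 (Tlr9, Ticam1 and Irak1) fell to DP only, and 6 were called at neither step. Of the 11, all but Tlr2 had a ProT mean below 7.17, where signal may be background and a second fall could hardly be seen. Tlr1, Tlr7, Ly86 and Clec7a fell and then rose, Irak2 and Il1r2 rose and then fell, and Pycard rose to DP only. Since a call at one step and not the other does not show that the steps differ, ProT was also tested against the mean of the HSC and DP levels (their midpoint), a contrast that differs from 0 where the changes of the 2 steps differ. It was called for 25 of 39 genes (64.1%, against 21% of all genes), with 16 below the midpoint (9.17% of all genes) and 9 above (11.8%). Below it were Pycard at -0.67 (SE 0.06, adjusted p = 0.00128), which rose to DP only, the 4 genes that fell and then rose, with Ly86 at -4.56 (SE 0.43, adjusted p = 0.00125), and genes that fell to ProT, with Saa3 at -3.38 (SE 0.16, adjusted p = 9e-05), Chil1 at -2.95 and Clec5a at -2.36. Above it were Il1r2 at 2.39 (SE 0.17, adjusted p = 0.000493), Irak2 at 1.80, Casp1 at 1.41, Clec4e at 1.06, Tlr9 at 0.82, Irak1 at 0.70, Clec12a and Cd180 at 0.68, and Myd88 at 0.34. The counts ranged from 6 to 10 above and from 10 to 19 below when 1 array was left out. For genes that fell to ProT only, other than Tlr2, signal below 7.17 in ProT and DP limits this contrast too. For Clec4e the adjusted p without ProT replicate 2 was 0.0535. The calls of Tlr9, Clec12a and Myd88 were lost without at least 3 of the 6 arrays each (adjusted p from 0.0565 to 0.129), as were those of Tlr1, Tlr2, Tlr8, Tlr13 and Clec4d below the midpoint (adjusted p from 0.0535 to 0.134), and that of Clec7a without a DP array (0.0507 and 0.0566). Irak3, Nlrp3 and Casp4, which fell at both steps, were not called in this contrast (0.24, 0.12 and 0.33, adjusted p = 0.421, 0.591 and 0.0926), other than Casp4 without DP replicate 1 (0.42, adjusted p = 0.0403).

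Other genes of these pathways, which are not among the 43, are given by list. Of all genes, 14.7% were called from HSC to ProT and 32.6% from ProT to DP. Of 29 other adaptors, kinases and NF-kB genes, 2 rose and 1 fell from HSC to ProT (10.3% called). From ProT to DP, 6 rose and 6 fell (41.4%), and the median changes were 0.03 and -0.05. The ubiquitin ligase gene Peli1 rose by 1.15 (adjusted p = 0.000945) and the kinase gene Ikbke fell by 1.24 (adjusted p = 0.00477) at the first step. At the second, Tirap, the bridge between Tlr2 or Tlr4 and Myd88, fell by 2.19 (adjusted p = 0.000475) and the transcription factor gene Irf5 fell by 1.82 (adjusted p = 0.000495). Sigirr, an inhibitory receptor, rose by 0.75 at the first step (adjusted p = 0.0445). That rise was 0.47 without HSC replicate 2. Its call was lost without any ProT array, and also without any DP array, which leaves the rise at 0.75.

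Tyrobp and Fcer1g, the adaptors of lectin and TREM receptors, fell from ProT to DP. Of 10 genes of the ITAM and CARD9 pathway, 1 rose and 2 fell from HSC to ProT, and 1 rose and 4 fell from ProT to DP. That is 30% and 50% called, against 14.7% and 32.6% of all genes, with median changes of -0.08 and -0.27. Tyrobp had means of 12.35, 12.76 and 9.59, with a change of 0.40 (adjusted p = 0.0319) and then a fall of 3.16 (adjusted p = 1.15e-05). The first change lost its call when any 1 of the 6 arrays was left out, though leaving out a DP array keeps it at 0.40. Fcer1g, the adaptor of Mincle, had means of 12.62, 12.62 and 9.82 and fell by 2.80 at the second step (adjusted p = 1.42e-05), and the phospholipase gene Plcg2 fell by 3.62 (adjusted p = 1.42e-05). Card9, which links lectin receptors to NF-kB, fell by 1.77 from HSC to ProT (adjusted p = 0.000102). Prkcd, a kinase that acts on Card9, fell by 0.42 at that step (adjusted p = 0.0164). Its call was lost without ProT replicate 2, and also without a DP array, which leaves the fall at 0.42.

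Of 11 other inflammasome genes, 6 fell from HSC to ProT and 4 from ProT to DP, with 0 rises and median changes of -0.44 and -0.26. That is 54.5% and 36.4% called, against 14.7% and 32.6% of all genes. From HSC to ProT, Naip2, a sensor of bacterial secretion proteins, fell by 2.84 (adjusted p = 5.93e-05). Its partner Nlrc4 fell by 1.96 (adjusted p = 0.000786) and Mefv fell by 2.08 (adjusted p = 0.0136). The call of Mefv was lost without ProT replicate 1, and also without a DP array, which leaves the fall at 2.08. Naip5, Naip6 and Il18 fell from ProT to DP with changes of -1.62, -1.68 and -1.55, with all of these means below 7.17, and for Il18 the call was lost without any ProT or DP array (adjusted p from 0.0502 to 0.128). Naip genes are close copies of each other, so their probe sets may not tell them apart.

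Of 8 sensors of nucleic acids in the cytosol, 1 rose from HSC to ProT, and 1 rose and 5 fell from ProT to DP. That is 12.5% and 75% called, against 14.7% and 32.6% of all genes, with median changes of -0.08 and -0.77. Sting1, which relays the detection of DNA, fell by 1.46 (adjusted p = 0.000146) and Dhx58, an RNA helicase, fell by 1.20 (adjusted p = 0.000616), both at the second step. Zbp1, a sensor of unusual nucleic acid structures, rose by 0.69 and then by 1.34 (adjusted p = 0.0333 and 0.00143). The call of its first rise was lost without any ProT array, and also without any DP array, which leaves that rise at 0.69.

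Of 14 inflammatory products and related receptors, 1 rose and 3 fell at the first step and 2 rose and 4 fell at the second. That is 28.6% and 42.9% called, against 14.7% and 32.6% of all genes, with median changes of -0.25 and -0.23. Lcn2, an iron-scavenging neutrophil protein, fell by 5.69 (adjusted p = 0.00144) and Nos2, the inducible nitric oxide synthase, fell by 2.96 (adjusted p = 7.42e-05) from HSC to ProT. Il18r1, a chain of the interleukin 18 receptor, rose by 3.09 (adjusted p = 0.000235) and then fell by 2.59 (adjusted p = 0.000249), highest in ProT like Il1r2. The chemokine gene Ccl3 fell by 4.33 (adjusted p = 0.000166) and Tnf fell by 1.95 (adjusted p = 0.000494) from ProT to DP.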

How the data were processed

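The values analysed were deposited as 1 table of log2 signals for 35556 probe sets on 6 arrays, made by the authors with RMA, which corrects background, normalizes the arrays to each other and summarises each probe set, and with Partek, per the submitters' processing notes. No version, setting or genome build is named in those notes, and scanner files were not used here. The values lay between 3.22 and 14.38 and the array medians between 6.73 and 6.91. With 2 arrays per population, the number of arrays limits the precision. A probe annotation linked 21789 probe sets to 1 gene each, for 19938 genes. For the 999 genes with several, the probe set with the highest mean was used. Left out were 1621 probe sets that name several genes and 12146 that name none. Symbols were matched to RefSeq by gene identifier for 21698 probe sets, with 0 changed.

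All 6 arrays were fitted in 1 model with a mean per population (limma 3.58.1, R 4.3.3, eBayes, 3 residual and 2.83 prior degrees of freedom), without the replicate number and with no filter on signal. Adjusted p-values are Benjamini-Hochberg values over all genes of a comparison, called below 0.05, and intervals are 95% intervals of the moderated fit. The named genes were every measured gene of the list, and for each pathway list up to 3 called genes with the largest change at each step. The genes and lists were chosen with earlier results of these data known. Alternatives were median centring, quantile normalization, a filter on dim genes, the replicate number as a block, other rules for the probe set, another prior, fits of the compared populations alone, stricter thresholds and leaving out each array. The scripts were tested on simulated data. Motifs were searched in the 250 bases before RefSeq starts (GRCm38.p6) with Python 3.11.15.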

Additional observations from a re-analysis of the deposited data

How the results depend on the processing

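Over the 39 innate genes, the 4 comparisons and every alternative, 2187 single-gene values kept direction and call, 183 lost the call, 24 gained it and 31 changed sign. All that changed sign were uncalled in the report. The count of kept values includes some that could hardly move. Each of the 39 genes had 1 probe set, so the other rules for the probe set could not alter its change. These rules gave 156 kept values each. The stricter thresholds used the main fit, so no sign could turn there. The rarer counts moved most. The 2 rises from HSC to ProT became 1 with a replicate block, median centring, fits of the compared populations alone, an adjusted p below 0.01 or a 2-fold minimum. At 0.01, 3 genes rose from ProT to DP, 1 from HSC to DP, and 5 lay above the midpoint. With the 2-fold minimum, 1 rose from HSC to DP and 4 lay above the midpoint. Leaving out 1 array gave 1 to 3 rises and 22 to 27 falls from HSC to ProT, 3 to 5 and 13 to 18 from ProT to DP, 1 to 3 and 23 to 34 from HSC to DP, and 6 to 10 above and 10 to 19 below the midpoint. Apart from the stricter thresholds, 21 of the 27 falls from HSC to ProT, 12 of the 17 from ProT to DP and 23 of the 31 from HSC to DP kept their call in every alternative that gave a value. Without an array of 1 population, its other array is assumed to vary like the rest. For 2 compared populations, leaving out either array of the third gives the same fit as the compared populations alone, so these are not separate checks. No shared effect of the replicate number was visible: deviations of the same number correlated at 0.058, -0.022 and -0.043 over genes. This does not show that the arrays were unpaired, which the labels do not say. With the replicate number as a block, falls numbered 25, 16 and 29 in the first 3 comparisons, and Myd88, Irak2 and Il1b (ProT against HSC), Nod1 (DP against ProT), and Tlr1 and Nod2 (DP against HSC) lost their calls. Under quantile normalization, calls were lost for Ticam1 and Nod1 from ProT to DP (adjusted p = 0.0651 and 0.133) and for Ticam1 from HSC to DP (0.122). Median centring lost those of Irak2 from HSC to ProT (0.0507), Nod1 from ProT to DP (0.0796), and Tlr1, Ticam1 and Nod2 from HSC to DP (0.0552, 0.0506 and 0.0934). Another prior lost those of Myd88, Ticam2 and Casp1 from HSC to ProT (0.059, 0.0607 and 0.0542) and Nod2 from HSC to DP (0.0542). Pycard was called lower in ProT than HSC under quantile normalization (adjusted p = 0.049) and with median centring (0.0357). Signs turned under quantile normalization for Tlr2 from ProT to DP (0.0273) and Ticam2 against the midpoint (-0.0682). Under median centring they turned for Irak1 from HSC to ProT (-0.0635), for Cd14, Ly96 and Saa3 from ProT to DP (0.071, 0.0077 and 0.0765), for Tlr3 from HSC to DP (0.0276), and for Ticam2 and Nod2 against the midpoint (-0.0529 and -0.0159). Over the left-out arrays, from HSC to ProT Ticam1 ran from -0.193 to 0.3993, Ly96 from -0.7926 to 0.1408, Irak1 from -0.0376 to 0.0519, Nod2 from -0.1574 to 0.015 and Il1rn from -0.7948 to 0.004. From ProT to DP, Tlr3 ran from -0.0079 to 0.1739, Cd14 from -0.2529 to 0.1499, Clec4n from -1.0802 to 0.0469, Il1rn from -0.4434 to 0.1511, Saa3 from -0.2181 to 0.1259 and Chil1 from -0.7121 to 0.3925. From HSC to DP, Tlr3 ran from -0.061 to 0.0124 and Ly96 from -0.9074 to 0.026. Against the midpoint, Tlr6 ran from -0.3728 to 0.1685, Ly96 from -0.3389 to 0.1278, Ticam2 from -0.0435 to 0.131, Nod1 from -0.4111 to 0.0176, Clec4n from -0.8191 to 0.308 and Il1rn from -0.4219 to 0.1726. The background of all genes also moved with the normalization. From ProT to DP, 2899 of all genes rose and 3607 fell in the main fit. The counts were 3629 and 3044 under quantile normalization, and 4680 and 2967 under median centring. Of the 39 innate genes, 17 fell at that step in the main fit, 15 under quantile normalization and 16 under median centring. The cause of these changes was not tested, beyond the smaller number of arrays in the fits that leave one out. Signals near 7.17 or below may be background, so changes between such values limit what can be read from Tlr7, Tlr1 and Clec7a. The same limit holds for the missing second fall of genes that fell to ProT only, other than Tlr2.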

Other observations

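Innate genes close to each other in the genome differed in the size of their changes, and Clec12a and Clec7a in direction, as values side by side show and without a test. Clec4n, Clec4d and Clec4e follow each other with 0 protein-coding genes between them, and their means in HSC, ProT and DP were 7.37, 6.34 and 5.82 for Clec4n, 8.27, 6.14 and 5.02 for Clec4d, and 12.16, 9.80 and 5.32 for Clec4e. Casp1 and Casp4, also adjacent, changed by -0.45 and -1.31 at the first step and by -3.26 and -1.98 at the second, both lower at each. The DP means of these Clec4 and Casp genes were below 7.17, which limits what the sizes can show. Trem1 and Trem3, adjacent too, changed by -3.02 and -5.15 at the first step. Clec12a and Clec7a lie in the same lectin gene cluster with 4 protein-coding genes between them, and from ProT to DP Clec12a fell by 2.80 while the change of Clec7a was 1.27, a rise that was lost without ProT replicate 2 or a DP array.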
